A study of Mus musculus musculus x Mus musculus castaneus with 8 samples.

Results

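The genes described here are the small nuclear, small nucleolar and ribosomal RNAs of one expression table, chosen by the type that the table gives each gene: snoRNA, snRNA, rRNA or scRNA. The table lists 24421 genes, and 125 of them carry one of these types: 114 snoRNAs, 8 rRNAs and 3 snRNAs, with 0 scRNAs. A minimum of 10 reads summed over the 8 libraries left 69 RNAs to describe, and 32 of these had enough reads in enough libraries to be tested. The cells were fibroblasts from the tail of a female mouse, an F1 hybrid whose parents are labelled Mus musculus and Mus castaneus, and Mus musculus musculus and Mus musculus castaneus in the organism field. They were plated on 15 cm dishes, given drugs 24 h after plating and lysed in Trizol after 72 h of growth. There were 4 groups of 2 libraries. The untreated group received solvent (DMSO) alone, and the volume of DMSO was matched across all groups. The 5azadC group received 5-aza-2'-deoxycytidine, an inhibitor of DNA methyltransferases. The VX680 group received an inhibitor of Aurora kinases, and the 5azadC+VX680 group received both drugs. Doses are not given in the labels, nor is the origin of the replicates (separate cultures, animals or preparations), so a p-value here reflects only how far these libraries differ, which may be technical. The study asked which drug pairs reactivate the silent X chromosome, and the RNAs below were not its stated subject.

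Small nucleolar RNAs guide chemical modification of other RNAs, mainly ribosomal RNA. Box C/D snoRNAs, named Snord in the mouse, pair with a target and direct fibrillarin to methylate a ribose. Box H/ACA snoRNAs, named Snora, direct dyskerin to turn uridine into pseudouridine. In mammals most of them are cut from introns of other genes, often genes of ribosomal proteins or the translation machinery, so the same primary transcript can give an mRNA and a snoRNA. Small nuclear RNAs are the RNA cores of the spliceosome, and U11 and U12 (Rnu11 and Rnu12) serve the minor spliceosome, which removes a rare class of introns. Rn45s is the 45S precursor that RNA polymerase I makes from the ribosomal DNA repeats and that is cut into mature ribosomal RNAs in the nucleolus.

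The sequences of 9 of these RNAs are shown because the results below turn on them. They come from GENCODE M21 on build GRCm38, are written 5′ to 3′ as DNA, and were matched by symbol. The first set holds RNAs that were higher after drug treatment. Snora65 lies on the plus strand at chr2:32963291-32963420, within Rpl12. Snord33 (chr7:45126864-45126947) and Snord32a (chr7:45127382-45127464) lie on the minus strand within Rpl13a. None of these 3 overlaps an annotated exon of its host. In box C/D RNAs the capitals mark TGATGA in the first 30 bases and CTGA in the last 20 bases, the core of boxes C and D. In box H/ACA RNAs they mark the last ACA found in the last 10 bases.
Snora65: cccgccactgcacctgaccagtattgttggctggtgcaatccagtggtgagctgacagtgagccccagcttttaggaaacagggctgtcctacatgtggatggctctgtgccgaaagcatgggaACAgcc
Snord33: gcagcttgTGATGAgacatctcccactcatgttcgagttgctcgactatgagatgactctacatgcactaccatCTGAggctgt
Snord32a: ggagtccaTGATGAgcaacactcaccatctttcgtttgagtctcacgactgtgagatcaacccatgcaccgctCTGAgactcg

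The second set holds RNAs that were lower after VX680, with Snord15b as the close relative of Snord15a and Snora23 as one of the most abundant box H/ACA RNAs. Snord17 lies on the minus strand at chr2:144265979-144266216, within Snx5 and outside its exons. Snord22 lies on the plus strand at chr19:8725866-8725991, within Snhg1, and overlaps an annotated exon of that non-coding host. Snord15a (chr7:99482785-99482932) and Snord15b (chr7:99479563-99479707) lie on the minus strand within Rps3, outside its exons. Rnu12 lies on the plus strand at chr15:83149644-83149794 and had no host by the rule used here. Snora23 lies on the plus strand at chr7:110046364-110046547, within Ipo7 and outside its exons. In Rnu12 the capitals mark TTTTTG, a run of the kind bound by Sm proteins. In Snora23 another ACA overlaps the marked one, so the capitals there need not be the box itself.
Snord17: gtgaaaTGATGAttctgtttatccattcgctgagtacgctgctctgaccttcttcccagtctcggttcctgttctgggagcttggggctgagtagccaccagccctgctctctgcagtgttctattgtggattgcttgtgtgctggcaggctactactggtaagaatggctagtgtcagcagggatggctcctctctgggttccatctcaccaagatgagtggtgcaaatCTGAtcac
Snord22: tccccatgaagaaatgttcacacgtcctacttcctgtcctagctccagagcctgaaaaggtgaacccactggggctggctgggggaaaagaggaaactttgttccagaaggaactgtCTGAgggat
Snord15a: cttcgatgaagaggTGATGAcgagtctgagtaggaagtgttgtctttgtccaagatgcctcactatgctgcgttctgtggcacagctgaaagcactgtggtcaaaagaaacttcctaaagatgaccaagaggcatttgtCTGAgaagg
Snord15b: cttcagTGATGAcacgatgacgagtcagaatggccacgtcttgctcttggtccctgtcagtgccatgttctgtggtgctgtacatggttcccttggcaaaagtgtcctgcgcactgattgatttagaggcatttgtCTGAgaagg
Rnu12: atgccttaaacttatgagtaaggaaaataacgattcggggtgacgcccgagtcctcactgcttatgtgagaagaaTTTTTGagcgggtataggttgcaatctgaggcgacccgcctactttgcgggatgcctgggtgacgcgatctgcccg
Snora23: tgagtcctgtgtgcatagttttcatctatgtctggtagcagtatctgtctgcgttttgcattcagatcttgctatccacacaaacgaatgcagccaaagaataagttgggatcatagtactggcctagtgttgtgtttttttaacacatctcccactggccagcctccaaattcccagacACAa

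Motifs were searched on the transcript strand alone. TGATGA stood in the first 30 bases of 72.7% of 99 GENCODE Snord transcripts and of 24 of the 33 transcripts of the described Snord genes. Snord22 did not hold these letters in that window. CTGA stood in the last 20 bases of 98.0% of the Snord transcripts and of 32 of the 33 described. ACA stood in the last 10 bases of 95.2% of 42 GENCODE Snora transcripts and of 31 of the 33 transcripts of the described Snora genes. TTTTTG, searched anywhere, stood in 6.4% of 1383 transcripts typed as snRNA, and both Rnu11 and Rnu12 held it. Snord15a and Snord15b were 66.0% identical over 162 aligned positions, and Snord32a and Snord33 were 66.3% identical over 89.

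The libraries held 6908503 to 11169532 gene reads. Levels are given as CPM, the reads of a gene for every 1000000 gene reads of its library, with the library size corrected by TMM, a scaling that centres most genes on no change. The fibroblast markers (10 genes, none at 0 in all libraries) summed to 31108 and 35178 CPM in the untreated libraries, and to 10990 and 11222 with both drugs, where 7 of the 9 tested fell and 2 rose. Endothelial markers (5 genes) summed to 11.7 and 13.6 CPM in untreated libraries and to 84.7 and 92.8 with VX680. Leukocyte markers (5 genes, 2 of them at 0 in all 8 libraries) summed to between 15.4 and 24.7 CPM, and of the 2 tested 1 rose and 1 fell with VX680 and with both drugs. Skeletal muscle markers (4 genes) summed to 19.8 and 20.6 CPM in untreated cells and to 37.9 and 46.2 with 5azadC. Melanocyte markers (4 genes, 1 at 0 in all libraries) summed to 4.62 and 5.72 CPM in untreated cells and to 0.686 and 2.01 with 5azadC, and keratinocyte markers (4 genes) to between 1.36 and 2.66 CPM in all groups. The part of these shifts in the results below was not tested. In bulk RNA, fewer cells of a type and less RNA per cell cannot be told apart.

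The replicates differed in the level of small RNAs. Summed snoRNA reads were 401 and 667 CPM in untreated replicates 1 and 2, and 385 and 604 CPM in 5azadC replicates 1 and 2. They were 358 and 399 CPM with VX680, and 505 and 482 CPM with both drugs. Replicate 2 therefore lay 1.66 times above replicate 1 in untreated cells and 1.57 times above it with 5azadC, against 1.12 and 0.95 times in the other groups. Of the 32 tested RNAs, 27 were higher in untreated replicate 2 than in replicate 1, and 30 were higher in 5azadC replicate 2. The counts were 18 with VX680 and 14 with both drugs. Rmrp and Rpph1, the RNAs of RNase MRP and RNase P, are typed as ncRNA and are not members, and their sum moved in the same libraries: replicate 2 stood at 1.54 times replicate 1 in untreated cells and 2.05 times with 5azadC, against 0.91 and 0.94 times in the other groups. Over all tested genes the median log2 difference between replicates was -0.00 in untreated cells and -0.02 with 5azadC. TMM holds this median close to no change, so it cannot show whether most genes shared the shift. The differences of the small RNAs are relative to it. For calls against untreated cells, the effect of leaving out untreated replicate 2 is given below.

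**Figure D1:**
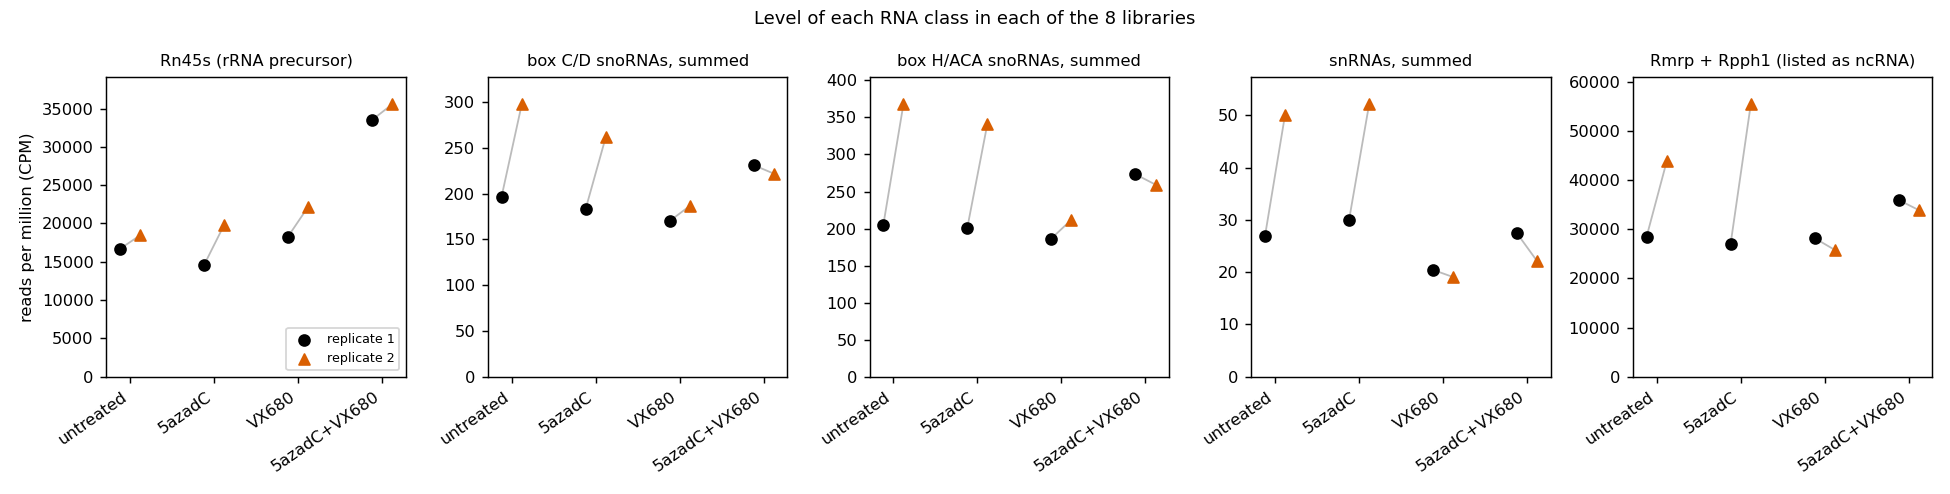
Level of each RNA class in each of the 8 libraries, in CPM (linear axes starting at 0), with a circle for replicate 1 and a triangle for replicate 2 of each group, joined by a line. Rn45s is higher in both 5azadC+VX680 libraries than in the other 6, while the snoRNA and snRNA sums are highest in replicate 2 of the untreated and 5azadC groups.

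Reads were unequally spread over the RNAs. Rn45s held 1432636 reads over the 8 libraries, against 30553 for all snoRNAs and 1992 for the snRNAs. The 4 snoRNAs with most reads (Snord17, Snora74a, Snora23 and Snora81) held 59.1% of the snoRNA reads, and the 9 with most reads held 81.2%. Per kilobase of deposited length, the mean level over the 8 libraries was 3835 CPM for Rn45s, 608 for Snord17, 331 for Snora74a, 264 for Snord22, 243 for Snora81, 240 for Snora23 and 219 for Snora64. Snora78 followed at 144 CPM per kilobase, Snord104 at 115, Snord15b at 87.2, Snord15a at 74.5, Snora44 at 72.0 and Snora43 at 63.0. Snora65 (43.0), Snora17 (40.2) and Snord55 (43.7) lay close together at about the same level per kilobase. Among the snRNAs, U12 stood at 188 CPM per kilobase and U11 at 26.6, and Rn4.5s, a small rodent RNA that the table types as rRNA, stood at 22.2.

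Long snoRNAs held nearly all of the signal. The 37 snoRNAs of 100 bases or more in the deposited length column carried 93.4% of the snoRNA reads, with a median of 122 reads each, and 34 of them reached 10 reads. The 77 shorter ones carried 6.6%, with a median of 6 reads, and 31 reached 10. Box H/ACA RNAs are the longer class, and 31 of 36 reached 10 reads against 33 of 69 box C/D RNAs. Of all 125 listed genes, 33 had 1 to 9 reads and 23 had 0. A count of 0 allows up to 3 reads in the 8 libraries together, or 0.0453 CPM. These 23 were 10 box C/D RNAs, 1 box H/ACA RNA, 6 other snoRNAs and 6 rRNAs. Just above the minimum lay Snora30 and Snord19 with 11 reads each, and just below it lay Snora36b, Snord2, Snord43, Snord95 and AF357399 with 9 each. The 37 described RNAs that were not tested (24 box C/D, 12 box H/ACA and 1 other snoRNA) held 11 to 75 reads each. How reads were selected by length during library preparation is not given in the sources used here.

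**Figure D2:**
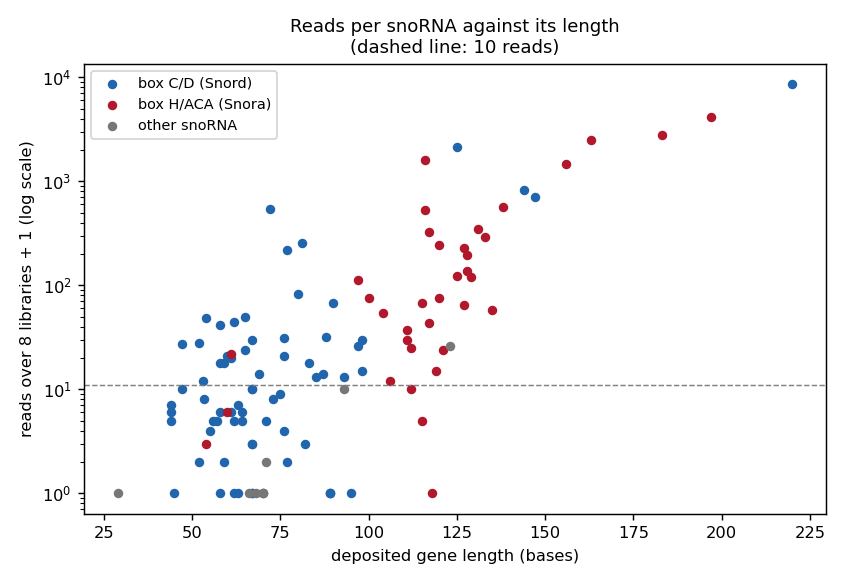
Reads summed over the 8 libraries, plus 1, on a log axis against the deposited gene length in bases for the 114 listed snoRNAs, coloured by class, with a dashed line at the minimum of 10 reads. Most points below the line are shorter than 100 bases, and Snord17, the highest point, holds 8595 reads.

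The tests compared 12643 genes, and a change was called at a Benjamini-Hochberg adjusted p under 0.05 in edgeR's quasi-likelihood test. With 5azadC alone 2 of the 32 tested RNAs rose and 0 fell, where 42.2% of all tested genes changed (22.6% higher, 19.6% lower). With VX680 alone 2 rose and 7 fell, where 46.1% of all genes changed (23.8% higher, 22.4% lower). With both drugs 5 rose and 0 fell, where 55.7% of all genes changed (28.4% higher, 27.3% lower). DESeq2 and limma also called 0 lower with 5azadC and with both drugs, and at an unadjusted p under 0.05 edgeR had 0 lower with 5azadC and 2 with both. The direction turned with the library left out: without untreated replicate 1 the edgeR calls were 0 higher and 2 lower with 5azadC, and 1 higher and 3 lower with both drugs. Without 5azadC replicate 2 they were 1 higher and 3 lower with 5azadC, and without the filter on low counts they were 5 higher and 3 lower with both drugs. With all 8 libraries, the share of these RNAs that changed was below that of all genes in each comparison. Their estimates were also less precise. The median standard error of a log2 fold change was 0.36 for the tested RNAs and 0.16 for all genes in the comparison of both drugs with untreated cells. The median log2 fold change of the 32 RNAs was 0.03 with 5azadC, -0.32 with VX680 and 0.02 with both drugs, beside medians of 0.00, 0.01 and 0.01 over all genes.

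Rn45s, the entry for the ribosomal RNA precursor, was higher with the pair of drugs. Rn45s stood at 16667 and 18439 CPM in untreated cells, 14531 and 19793 with 5azadC, 18266 and 22164 with VX680, and 33503 and 35544 with both drugs. Every library with both drugs lay above every other library. Rn45s rose 1.97-fold with both drugs (log2 fold change 0.98 ± 0.13 SE, edgeR adjusted p = 3.26e-05), and it held 3.45% and 3.71% of all gene reads there. Neither drug alone passed the test: the log2 fold change was -0.03 ± 0.13 with 5azadC (edgeR adjusted p = 0.865) and 0.20 ± 0.13 with VX680 (edgeR adjusted p = 0.229). In 4 of the 14 alternatives the VX680 value was called higher: without the filter on low counts (0.21, edgeR adjusted p = 0.00273), without 5azadC replicate 1 (0.20, 0.0284), without 5azadC replicate 2 (0.19, 0.0421) and without both untreated replicate 2 and 5azadC replicate 2 (0.27, 0.00107). The 5azadC value was called lower in 2, without 5azadC replicate 2 (-0.29, edgeR adjusted p = 0.0184) and without that library and untreated replicate 2 (-0.21, 0.0232). The rise with both drugs passed in all 14 alternative analyses, with log2 values from 0.89 to 1.08. The ribosomal DNA repeats exist in many near-identical copies and the table has 1 entry for them on chromosome 17, so the count is uncertain as to which copies it sums. No step of ribosomal RNA removal is named in the labels. The deposited length of the entry is 5832 bases. Whether its reads came from the precursor or from mature ribosomal RNA cut from it cannot be told from the count.

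The test of the difference between drug effects bore on the same RNA. Rn45s was higher with both drugs than with 5azadC alone (log2 fold change 1.01 ± 0.13, edgeR adjusted p = 0.000131), as the 1 member called in a comparison where 24.8% of all genes changed (9.98% higher, 14.8% lower). That call passed in all 14 alternatives. Rn45s was also higher with both drugs than with VX680 alone (0.77 ± 0.13, edgeR adjusted p = 0.00446), again as the 1 member called, where 6.5% of all genes changed (2.45% higher, 4.05% lower). The last call was lost without VX680 replicate 1 (log2 0.64, edgeR adjusted p = 0.107), without 5azadC+VX680 replicate 1 (0.81, edgeR adjusted p = 0.05003) and without 5azadC+VX680 replicate 2 (0.73, edgeR adjusted p = 0.0744). The interaction, which is the effect of both drugs minus the sum of the separate effects on the log2 scale, was 0.80 ± 0.19 for Rn45s (edgeR adjusted p = 0.0111). It was called for 2 members and for 15.6% of all genes (4.95% above 0, 10.6% below). The interaction of Rn45s was lost without VX680 replicate 1 (0.67, edgeR adjusted p = 0.0911) and without 5azadC+VX680 replicate 2 (0.76, edgeR adjusted p = 0.0612).

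Rn4.5s was the other member with an interaction. It held 1.36 and 2.05 CPM in untreated cells, 5.80 and 5.90 with 5azadC, 5.69 and 3.20 with VX680, and 2.39 and 4.28 with both drugs. All treated libraries lay above the untreated ones, and the 5azadC libraries lay above those with both drugs. Rn4.5s rose 3.51-fold with 5azadC (log2 1.81 ± 0.43, edgeR adjusted p = 0.00424) and 2.72-fold with VX680 (1.44 ± 0.44, edgeR adjusted p = 0.0157). With both drugs the log2 fold change was 1.01 ± 0.46 and was not called (edgeR adjusted p = 0.0807), and the interaction was -2.25 ± 0.60 (edgeR adjusted p = 0.0215). These calls rest on 14 to 58 reads a library. Without untreated replicate 2 all 3 were kept, at edgeR adjusted p = 0.0137 for 5azadC, 0.0318 for VX680 and 0.0392 for the interaction. Without untreated replicate 1 all 3 were lost, at edgeR adjusted p = 0.0627 for 5azadC, 0.144 for VX680 and 0.105 for the interaction. Without VX680 replicate 1 the VX680 rise (log2 0.94, edgeR adjusted p = 0.221) and the interaction (-1.75, edgeR adjusted p = 0.154) were lost, and without 5azadC+VX680 replicate 1 the interaction was lost (-1.89, edgeR adjusted p = 0.0917).

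Among the box H/ACA RNAs, Snora65, the RNA shown above from within Rpl12, rose with each treatment. It stood at 2.18 and 2.93 CPM in untreated cells, 4.57 and 5.62 with 5azadC, 6.97 and 5.46 with VX680, and 5.20 and 7.31 with both drugs. The 6 treated libraries all lay above the untreated pair. The rise was 2.02-fold with 5azadC (log2 1.02 ± 0.35, edgeR adjusted p = 0.0337), 2.49-fold with VX680 (1.32 ± 0.35, edgeR adjusted p = 0.00668) and 2.49-fold with both (1.32 ± 0.35, edgeR adjusted p = 0.00574). Its counts were 20 to 71 reads a library. All 3 calls held without untreated replicate 2, and all 3 were lost without untreated replicate 1 (edgeR adjusted p = 0.208, 0.0741 and 0.0624). The 5azadC call was also lost in DESeq2 (adjusted p = 0.0714) and without 5azadC replicate 2 (edgeR adjusted p = 0.115), the VX680 call without VX680 replicate 1 (0.0729) and the call with both drugs without 5azadC+VX680 replicate 2 (0.0677).

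The remaining rises with both drugs were box C/D RNAs. Snord55 stood at 1.81 and 2.64 CPM in untreated cells, 2.79 and 3.98 with 5azadC, 3.73 and 2.80 with VX680, and 4.36 and 4.83 with both drugs. It rose 2.11-fold with both drugs (log2 1.08 ± 0.40, edgeR adjusted p = 0.0326), and was not called with either drug alone. Snord33 stood at 2.99 and 1.91 CPM untreated, 4.79 and 3.43 with 5azadC, 4.32 and 3.06 with VX680, and 6.33 and 4.00 with both. Its rise with both drugs was 2.04-fold (1.03 ± 0.40, edgeR adjusted p = 0.0421), and its treated libraries did not overlap the untreated ones in any group.

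Snord32a, from the same host as Snord33, stood at 0.73 and 0.73 CPM untreated, 0.78 and 0.69 with 5azadC, 1.57 and 1.47 with VX680, and 2.11 and 1.93 with both drugs. Its levels followed the presence of VX680, with the 4 libraries that received it above the 4 that did not. The rise with both drugs was 2.74-fold (log2 1.45 ± 0.54, edgeR adjusted p = 0.0356), on 5 to 16 reads a library. The VX680 value alone was 1.05 ± 0.55 and was not called (edgeR adjusted p = 0.137). Whether the drugs' effects differ for Snord55, Snord33 and Snord32a was tested by the interaction, and it was not called for any of them. Like the 5azadC rise of Snora65, the rise of Snord55 lost its call in 4 of 14 alternatives. The call was lost in 7 for Snord33 and 10 for Snord32a. For Snord32a and Snord33 these include the fits without either untreated library, without either VX680 library and without 5azadC+VX680 replicate 1 (without untreated replicate 2, edgeR adjusted p = 0.113 and 0.193). Snord32a also lost it without 5azadC+VX680 replicate 2 (edgeR adjusted p = 0.109). Snord55 kept it without untreated replicate 2 (1.33, edgeR adjusted p = 0.0436) and lost it without untreated replicate 1 (edgeR adjusted p = 0.214) or either 5azadC+VX680 replicate (0.0826 and 0.135), and DESeq2 called none of the 3.

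With VX680 alone, 6 snoRNAs and U12 were called lower. Snord15a stood at 12.4 and 16.6 CPM in untreated cells, 9.70 and 14.7 with 5azadC, 6.58 and 7.06 with VX680, and 10.5 and 10.1 with both drugs. Both VX680 libraries lay below the other 6. Snord15a was 2.11-fold lower than in untreated cells (log2 fold change -1.08 ± 0.26, edgeR adjusted p = 0.00370), and the call held in all 14 alternatives, including without untreated replicate 2 (-0.88, edgeR adjusted p = 0.0365). Snord15b, made from the same host transcript, had -0.57 ± 0.25 and was not called (edgeR adjusted p = 0.0752). Its VX680 libraries, at 10.8 and 7.99 CPM, lay below the untreated ones at 11.9 and 16.6.

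The other 6 falls with VX680 were not called without untreated replicate 2. U12 (Rnu12), which pairs with the branch site of minor introns, stood at 24.3 and 46.2 CPM untreated, 27.2 and 47.3 with 5azadC, 16.9 and 17.4 with VX680, and 25.7 and 18.9 with both drugs. Its log2 fold change with VX680 was -1.01 ± 0.29 (edgeR adjusted p = 0.0120), and without untreated replicate 2 it was -0.51 (edgeR adjusted p = 0.193). U11 (Rnu11), its partner at the 5′ splice site, ranged from 1.12 to 4.8 CPM and was not called in any comparison. Snord17, the most abundant snoRNA, stood at 119 and 195 CPM untreated, 103 and 162 with 5azadC, 96.4 and 116 with VX680, and 142 and 136 with both. Its log2 fold change with VX680 was -0.56 ± 0.21 (edgeR adjusted p = 0.0459), and without untreated replicate 2 it was -0.17 (edgeR adjusted p = 0.550).

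Snord22 stood at 32.1 and 43.1 CPM untreated and at 25.1 and 26.5 with VX680, for a log2 fold change of -0.53 ± 0.17 (edgeR adjusted p = 0.0179). Snora43 went from 8.98 and 13.2 CPM to 6.48 and 4.66 (-0.96 ± 0.29, edgeR adjusted p = 0.0147). Snora44 went from 7.16 and 13.3 CPM to 4.71 and 5.99 (-0.91 ± 0.32, edgeR adjusted p = 0.0312). Snora17 went from 6.35 and 7.92 CPM to 3.63 and 3.33 (-1.01 ± 0.37, edgeR adjusted p = 0.0360). In all 4 the VX680 libraries lay below the untreated pair. Without untreated replicate 2 none of the 4 was called, with log2 values of -0.33, -0.68, -0.44 and -0.87. The call of Snora17 was also lost without untreated replicate 1 (-1.19, edgeR adjusted p = 0.0599). Without untreated replicate 2 the median log2 fold change with VX680 was 0.10 over 40 tested RNAs. With all 8 libraries it was -0.32 over 32.

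Leaving out a VX680 library ended most of these calls too. Without VX680 replicate 1 the count fell to 2 (Snora43 and Snord15a), and without VX680 replicate 2 it was 3 (Rn4.5s, Snora65 and Snord15a). Without untreated replicate 1, which held less snoRNA signal, the median log2 fold change with VX680 was -0.64 over 40 tested RNAs. Over all genes of that fit it was 0.02. The median over the 32 RNAs was -0.32 with VX680 but 0.02 with both drugs, and it was 0.40 when both drugs were set directly against VX680. That last comparison called Rn45s and no snoRNA or snRNA. DESeq2 lost the calls of Rnu12 (adjusted p = 0.0587), Snora17 (0.0555) and Snord17 (0.197). Limma on the deposited signal lost Snora17 (adjusted p = 0.0634), Snora44 (0.0539) and Snord17 (0.101), and edgeR with TMM computed without the members lost Snord17 (adjusted p = 0.0526).

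**Figure D3:**
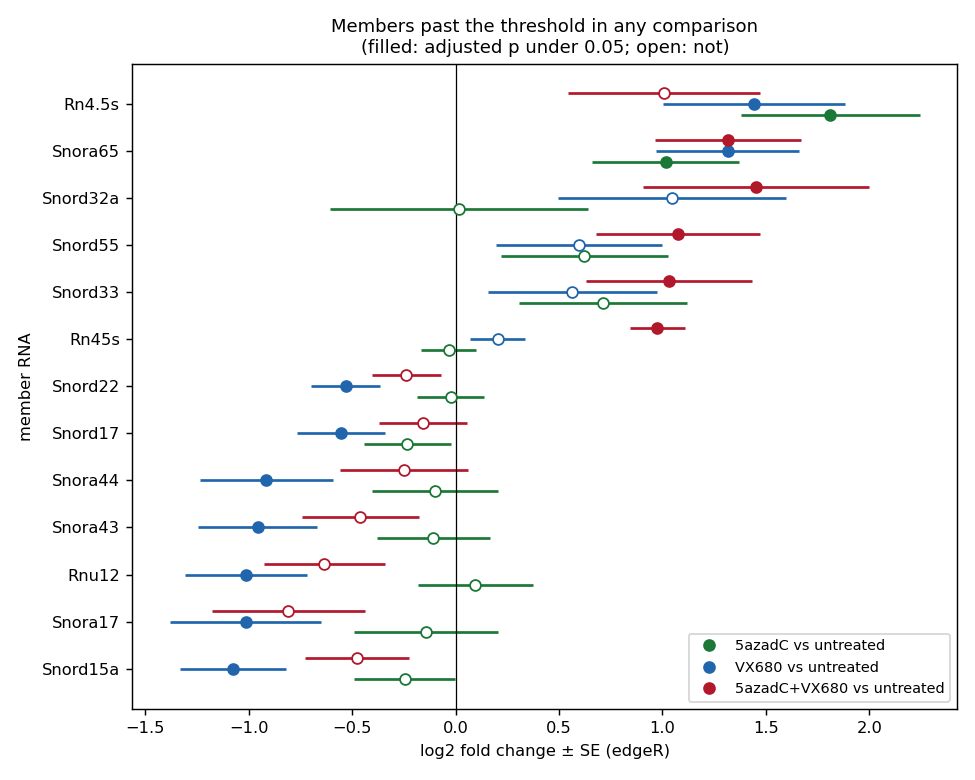
The log2 fold change against untreated cells, with its standard error, for the 13 RNAs called in at least 1 comparison, in green for 5azadC, blue for VX680 and red for both drugs, filled where the adjusted p is under 0.05. Filled points on the left are all VX680, and Snora65 is filled in all 3 colours.

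Several abundant RNAs that were not called had wide replicate spread in the untreated group. Snora74a (the U19 RNA) stood at 69.0 ± 27.8 CPM (SD, n = 2) untreated, 77.2 ± 35.5 with 5azadC, 49.6 ± 4.78 with VX680 and 65.0 ± 4.5 with both drugs. Snora23 stood at 48.2 ± 26.8, 41.6 ± 17.5, 35.3 ± 4.51 and 50.8 ± 1.16 CPM in the same order. Snora81 stood at 53.2 ± 25.3, 36.9 ± 19.0, 30.6 ± 6.70 and 37.8 ± 3.45 CPM. For these 3 the untreated replicates differed by more than any of the group means did. Snora64 (30.1 ± 14.2 untreated, 18.3 ± 4.00 with VX680) had a log2 fold change of -0.70 ± 0.28 with VX680 and missed the threshold (edgeR adjusted p = 0.0539). Snora78 (22.5 ± 3.45 untreated, 17.3 ± 0.35 with VX680) had -0.37 ± 0.17 (edgeR adjusted p = 0.0926). Snord104 went the other way, from 7.57 ± 0.70 CPM untreated to 10.1 ± 0.47 with VX680 (0.42 ± 0.25, edgeR adjusted p = 0.196). Of the 9 box C/D RNAs tested, 3 fell and 0 rose with VX680, and of the 19 box H/ACA RNAs, 3 fell and 1 rose. Of all tested genes 22.4% fell and 23.8% rose. The medians of the 2 classes lay on opposite sides of 0. The median log2 fold change was 0.38 over the box C/D RNAs (5 above 0, 4 below). Over the box H/ACA RNAs it was -0.42 (5 above 0, 14 below).

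Host genes were assigned with the GENCODE annotation: a host is a gene on the same strand that contains the snoRNA and that the table lists on the same chromosome. This gave 57 of the 69 RNAs 1 host each: 26 lie in ribosomal protein genes, 20 in other protein genes and 11 in non-coding hosts such as the Snhg genes. Of the 57, 52 overlapped no annotated exon of the host and 5 did. Among tested RNAs there were 24 pairs with 22 hosts. Reads of a host's unspliced transcript that cover a snoRNA cannot be told apart from reads of the mature snoRNA.

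With 5azadC 7 of the 22 hosts rose and 2 fell, with VX680 10 rose and 2 fell, and with both drugs 12 rose and 0 fell, beside the 22.6%, 23.8% and 28.4% of all genes called higher. The small RNAs had standard errors more than 2 times as large as those of all genes. The median log2 fold change over the 22 hosts was 0.33, 0.27 and 0.59 in that order, beside medians of 0.03, -0.32 and 0.10 for the 24 snoRNAs. In 15, 19 and 17 of the 24 pairs the host's value exceeded that of its snoRNA. Without untreated replicate 2 these counts were 11, 16 and 14, with snoRNA medians of 0.37, -0.02 and 0.38 beside host medians over the pairs of 0.18, 0.17 and 0.49, so with 5azadC the order turned. Without untreated replicate 1 they were 17, 18 and 18, and the hosts called higher numbered 6, 7 and 12, against 4, 7 and 9 without untreated replicate 2. Where the host rose, the snoRNA was not called higher in 6 of 7 pairs with 5azadC, 10 of 11 with VX680 and 12 of 13 with both drugs. Only 2, 2 and 5 of the 32 tested RNAs were called higher at all. These shares would therefore be high whatever the hosts did. Host and snoRNA were not tested against each other, and the untreated libraries enter all 3 comparisons.

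In some named pairs the host was called higher with VX680 and the snoRNA was not. Snhg1, a non-coding snoRNA host, rose with VX680 from 7.76 ± 2.48 to 16.7 ± 0.46 CPM (SD, n = 2; log2 fold change 1.07 ± 0.23, edgeR adjusted p = 0.00179), where its Snord22 fell. Ipo7, a nuclear import receptor, rose with VX680 by a log2 fold change of 0.99 ± 0.12 (edgeR adjusted p = 1.90e-05), where its Snora23 had -0.42 and was not called. Rps2, a protein of the small ribosomal subunit, rose by 0.86 ± 0.10 (edgeR adjusted p = 1.52e-05), where Snora64 had -0.70. Rps3 rose by 0.26 ± 0.09 (edgeR adjusted p = 0.0339, and 0.0821 and 0.166 without untreated replicate 1 or 2), where Snord15a fell and Snord15b had -0.57. Cct6a, a chaperonin subunit, rose by 1.12 ± 0.09 (edgeR adjusted p = 4.56e-07), where Snora15 had -0.92 ± 0.69 and was not called.

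In other pairs host and snoRNA went the same way or the host stayed level. Rpl12 stood at 14.6 ± 0.11 CPM untreated (SD, n = 2), 45.3 ± 9.25 with VX680 and 55.6 ± 14.6 with both drugs. Rpl12 rose with 5azadC (0.76 ± 0.25, not called without either untreated library at edgeR adjusted p = 0.127 and 0.0894), VX680 (1.64 ± 0.23) and both drugs (1.93 ± 0.24), as did Snora65 within it. Rpl13a was not called in any of the 3 comparisons, with 312 ± 18.9 CPM untreated and 348 ± 4.17 with both drugs (0.16 ± 0.13, edgeR adjusted p = 0.322), where Snord32a and Snord33 rose. Snx5, a sorting nexin and host of Snord17, rose with both drugs by 0.48 ± 0.11 (edgeR adjusted p = 0.00235) and was not called with VX680 (0.11 ± 0.11).

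**Figure D4:**
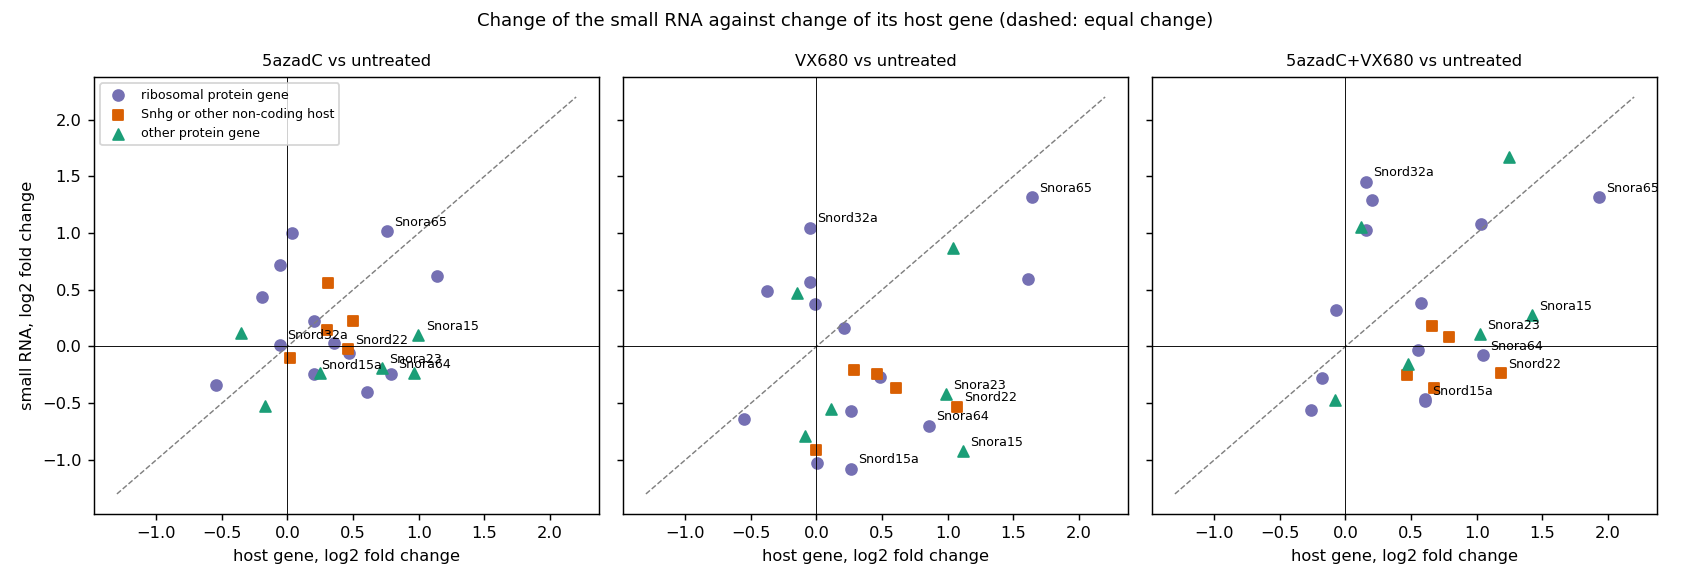
Log2 fold change of each small RNA (vertical) against that of its host gene (horizontal) for 24 pairs in 3 comparisons with untreated cells, with symbols for the kind of host and a dashed line at equal change. With VX680 19 of the 24 points lie below the line, and Snora65 lies above 0 on both axes in each panel.

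The protein genes that build and carry these RNAs were read from 11 lists, chosen with earlier results of these data known. Of 143 tested genes, 47 rose and 4 fell with 5azadC, 53 rose and 4 fell with VX680, and 72 rose and 7 fell with both drugs. Their median log2 fold changes were 0.21, 0.25 and 0.33, beside medians of 0.00, 0.01 and 0.01 over all genes. Without untreated replicate 1 the genes that rose numbered 29, 36 and 53, and without untreated replicate 2 they numbered 36, 39 and 53. In either direction 51, 57 and 79 of the 143 were called, where 42.2%, 46.1% and 55.7% of all genes were. Counts of genes that rose, here and in each list below, can be read against the 22.6%, 23.8% and 28.4% of all genes called higher. Counts that fell can be read against the 19.6%, 22.4% and 27.3% called lower.

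The protein cores of the snoRNPs had the highest medians of the 11 lists. Of the 4 tested box C/D core genes, 2, 3 and 3 rose with 5azadC, VX680 and both drugs. Nop56, a scaffold protein of the particle, had 43.7 CPM untreated and 77.6, 80.4 and 116 CPM in the treated groups, a log2 fold change of 1.41 ± 0.11 with both drugs (edgeR adjusted p = 2.48e-07). Its partner Nop58 rose by 1.21 ± 0.11 (edgeR adjusted p = 7.12e-07). The methyltransferase fibrillarin (Fbl) rose by 1.15 ± 0.38 with both drugs (edgeR adjusted p = 0.0195), and Nhp2l1, the 15.5K RNA-binding protein, was not called. Of the 4 box H/ACA core genes, 3, 3 and 4 rose. Nhp2 went from 17.3 CPM untreated to 47.7, 58.9 and 77.6 CPM (2.15 ± 0.13 with both drugs, edgeR adjusted p = 1.65e-08). Dkc1, the pseudouridine synthase dyskerin, rose by 1.73 ± 0.12 (edgeR adjusted p = 8.64e-08), Gar1 by 0.77 ± 0.26 (0.0232) and Nop10 by 0.50 ± 0.20 (0.0442). Without untreated replicate 1 the rises of Fbl, Gar1 and Nop10 with both drugs were not called (edgeR adjusted p = 0.119, 0.245 and 0.130), nor was that of Nop10 without untreated replicate 2 (0.139).

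Assembly factors of the snoRNPs went the same way: 7 rose and 1 fell of 12 with 5azadC, 7 rose and 0 fell with VX680, and 9 rose and 1 fell with both drugs. Nolc1, a nucleolar chaperone of snoRNPs, had 95.04 CPM untreated and 297 with both drugs (1.64 ± 0.11, edgeR adjusted p = 5.93e-08). Ruvbl2, an ATPase of the R2TP complex, rose by 1.33 ± 0.11 (3.51e-07 by the same test), Shq1, a dyskerin chaperone, by 1.59 ± 0.27 and Naf1, an H/ACA assembly factor, by 1.03 ± 0.18. In the Sm and SMN list, which loads the ring of Sm proteins on snRNAs, 9, 10 and 13 of 19 rose and 0 fell. Strap rose by 1.16 ± 0.10 with both drugs, Gemin5, which recognises snRNAs, by 1.15 ± 0.12, and the Sm proteins Snrpd3 and Snrpf by 1.07 ± 0.12 and 1.06 ± 0.13. Of 20 tested proteins specific to single snRNPs, 6, 6 and 10 rose and 0 fell, among them Snrpa1 of U2 (1.17 ± 0.13), Lsm4 (1.09 ± 0.12), Eftud2 of U5 (0.73 ± 0.10) and Prpf31 (0.57 ± 0.13) with both drugs.

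Of 14 tested genes of RNA polymerase I and its factors, which transcribe Rn45s, 6, 7 and 9 rose and 0 fell. Polr1e went from 3.7 CPM untreated to 7.8 with 5azadC, 15.3 with VX680 and 16.5 with both drugs (log2 2.17 ± 0.25, edgeR adjusted p = 7.52e-06). The largest subunit Polr1a rose by 0.85 ± 0.12 with 5azadC, 0.89 ± 0.12 with VX680 and 1.11 ± 0.12 with both, and Cd3eap by 1.23 ± 0.13 with both. Polr1d, a subunit shared with RNA polymerase III, was not called with 5azadC (0.26 ± 0.11) and rose with VX680 (0.37 ± 0.11) and both drugs (0.84 ± 0.11). Without untreated replicate 1 the rises of Polr1e with 5azadC and of Polr1d with VX680 were not called (edgeR adjusted p = 0.0523 and 0.0981).

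Of 20 genes of RNA polymerase III and its factors, 4 rose and 2 fell with 5azadC, 4 rose and 3 fell with VX680, and 7 rose and 3 fell with both drugs. The alternative subunits Polr3g and Polr3gl went opposite ways with both drugs: Polr3g rose from 1.8 to 9.3 CPM (2.38 ± 0.39, edgeR adjusted p = 0.000152) and Polr3gl fell from 24.6 to 9.2 CPM (-1.43 ± 0.22, edgeR adjusted p = 7.92e-05). Brf1, a subunit of the initiation factor TFIIIB, fell by 0.55 on the log2 scale, and Polr3d rose by 0.62 ± 0.10. Among 22 genes of snRNA transcription and the Integrator complex, which cleaves snRNA 3′ ends, 3 rose and 1 fell with each drug, and 4 rose and 2 fell with both. Ints1 rose by 0.48 ± 0.08 and Ints10 by 0.62 ± 0.13 with both drugs, Cpsf3l by 0.42 ± 0.12, and Ints7 had -0.53 ± 0.12 (edgeR adjusted p = 0.00252).

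Of 11 RNase P and MRP proteins 4, 4 and 7 rose and 0 fell, including Pop1 (0.85 ± 0.13 with both drugs), Rpp38 (1.33 ± 0.29), Pop7 (0.50 ± 0.15) and Pop4 (0.64 ± 0.16). Of 11 proteins that bind small RNAs or trim their 3′ ends, 3, 4 and 5 rose and 0 fell. The exosome nuclease Dis3 rose by 0.82 ± 0.12 with both drugs, the poly(A) polymerase Papd5 by 0.75 ± 0.13, the exosome subunit Exosc3 by 0.49 ± 0.18 and Trove2, the Ro autoantigen, by 0.28 ± 0.10. Of 6 proteins of the 7SK particle, 0 changed with 5azadC, 2 rose with VX680, and 1 rose and 1 fell with both drugs. Those were the kinase Cdk9 (0.53 ± 0.12) and cyclin T2, Ccnt2 (-0.32 ± 0.11). Ccnt1 rose with VX680 (0.26 ± 0.10), and Mepce, which caps 7SK, was not called. Among the genes named from the last lists, Exosc3 and Trove2 lost their rise with both drugs without untreated replicate 1 (edgeR adjusted p = 0.316 and 0.0608). Without untreated replicate 2 the calls of Trove2 (0.145), Pop7 (0.0766), Cpsf3l (0.0927) and Ccnt2 (0.106) were lost, and Ccnt1 lost its VX680 call without either (0.0877 and 0.194).

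**Figure D5:**
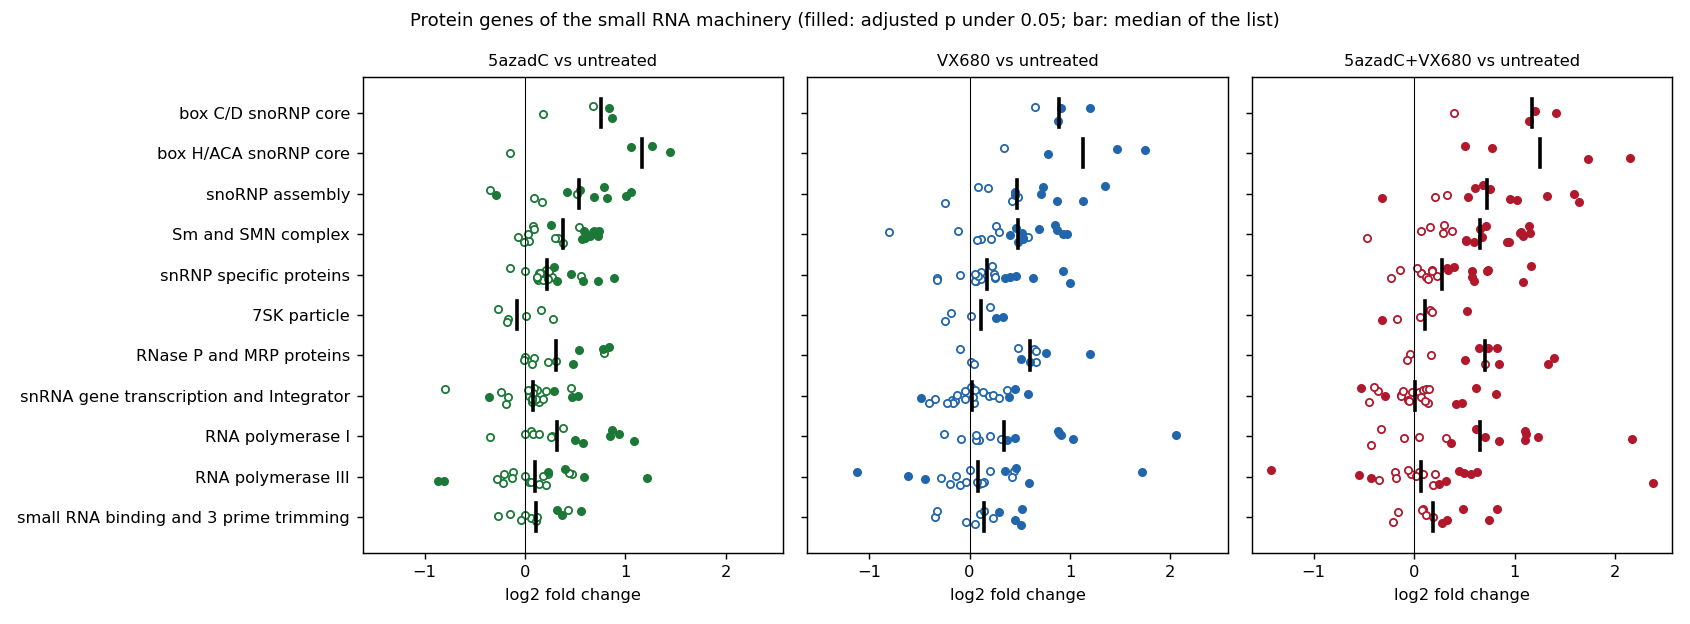
Log2 fold changes of the tested genes of 11 lists of small RNA machinery in 3 comparisons with untreated cells, filled where the adjusted p is under 0.05, with a bar at the median of each list. The box H/ACA and box C/D core lists have the medians farthest to the right in each panel, and the 7SK, Integrator and RNA polymerase III lists have medians near 0, with single genes of the last from -1.43 to 2.38 with both drugs.

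Reads that cover a difference between the parental genomes carry a label, mus or cas. Of the listed RNAs 82 had at least 1 allelic read, and 12 had 80 or more over the 8 libraries. Over all genes 46.9% of allelic reads were mus. Intervals below are exact binomial 95% intervals and cover counting error alone, since reads are not independent molecules. Snora23 had 42.0% mus reads of 1923, with libraries between 38.2% and 48.2%. Snord15a had 38.5% of 683 (30.6% to 50.7%), Snord15b 41.4% of 799 (24.1% to 48.1%) and Snora64 56.0% of 638 (45.7% to 60.2%). Snora65 had 62.0% of 179 reads (libraries from 44.4% to 85.7%) and Snora47 66.3% of 101 (52.9% to 100%). Snord33 had 32.3% of 99 reads (14.3% to 57.1%) and Snora78 29.2% of 137 (17.6% to 50%). Rn4.5s, at 50.4% of 135, and Rnu11, at 57.8% of 187, had libraries ranging from 14.3% to 75.0% and from 37.5% to 75.0%, on few reads each.

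U12 and Rn45s were the far ends. Rnu12 had 13 mus reads of 265, or 4.91%, with 0% in untreated replicate 2 (0 of 44, interval up to 8.04%) and VX680 replicate 2 (0 of 23, up to 14.8%) and the highest value, 10.3% (3 of 29), in 5azadC+VX680 replicate 1. All 8 libraries thus held mainly cas reads. Rn45s had 86.6% mus reads of 16723. Its share lay between 88.7% and 91.0% in 7 libraries and at 72.8% (interval 71.2% to 74.3%) in 5azadC+VX680 replicate 2, where 902 cas reads were counted against 227 in 5azadC+VX680 replicate 1. The mus reads of these libraries were close, at 2412 and 2296. The total level of Rn45s in the library with the low mus share, 35544 CPM, was within 1.06 times that of the other. Because the repeats have many copies at several loci, these shares do not describe alleles of 1 locus.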

How the data were processed

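Total RNA of 8 libraries (2 in each of 4 groups, set by the sample labels) was extracted with Trizol and made into dUTP strand-marked libraries, per the labels' protocols. The submitters' processing notes name build mm9 and list TopHat2 2.0.10, HOMER 4.8 and edgeR, without roles, order or counting mode. The authors deposited raw counts per gene with both alleles together, and raw counts per allele. The deposited signal equals these counts times 1 factor per library, from 1 to 1.614, whose making is not stated. Another deposited column holds the length of each gene in bases.

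Counts were tested with edgeR 4.0.16 in R 4.3.3: filterByExpr kept 12643 genes, libraries were scaled by TMM, a mean for each group was fitted to the 8 libraries, and quasi-likelihood p-values were adjusted by Benjamini-Hochberg across the genes kept, with calls at an adjusted p under 0.05. There were 6 comparisons. An exact permutation test of 2 against 2 cannot go below p = 0.333 and was not used. Alternatives were DESeq2 1.42.0, limma 3.58.1 on log2 of the deposited signal plus 1, TMM without the members, no filter, a replicate block and leaving out each library. Leaving out 2 libraries together, and leaving out each untreated library for hosts, lists and Terc, were chosen after seeing the data. The members and lists were chosen with earlier results of these data known. Named RNAs are the 15 with most reads, all called members, the leading ones of each type, and up to 4 genes a list by smallest p. Hosts were assigned after the table was seen to hold no coordinates, with GENCODE M21 (GRCm38), where 67 of 69 symbols matched. No coordinates of mm9 are given. One host gene and the sequence of 1 member are not reported here.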

Additional observations from a re-analysis of the deposited data

Results flagged for a closer look

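The effects of the drugs on Rn4.5s and Rn45s differed with and without the other drug, by the interaction test of edgeR. For Rn4.5s the interaction was -2.25 on the log2 scale (adjusted p = 0.0215), with all 4 single-drug libraries above both untreated libraries and levels of 2.39 and 4.28 CPM when the drugs were combined. For Rn45s it was 0.80 (adjusted p = 0.0111), with both combined libraries above the other 6. The libraries on which each rests are named beside the values in the report.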

How the results depend on the processing

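Across the 14 alternatives, Rn45s with both drugs against untreated cells or 5azadC, and Snord15a with VX680, kept their direction and their call. The number of RNAs tested also moved, to 40 without either untreated library, against 32 with all 8 libraries. The member counts moved beyond 1.5 times as follows. Without the filter on low counts there were 14 calls with VX680, 8 with both drugs against untreated cells, 3 against 5azadC, 5 against VX680 and 6 for the interaction, with all 69 RNAs tested. DESeq2 gave 1 call with 5azadC and 2 with both drugs against untreated cells, and limma on the deposited signal gave 2 with both drugs against 5azadC. That signal shifted the median of all genes by 0.12 on the log2 scale with VX680 and with both drugs, and by 0.10 with both drugs against 5azadC. Leaving out untreated replicate 2 and 5azadC replicate 2 together gave 5 calls with VX680, 6 with both drugs against 5azadC, 6 against VX680 and 4 for the interaction. Leaving out 1 library, where the lone sample of a group is assumed to vary like the other groups, gave 2 to 4 calls with 5azadC, 2 to 14 with VX680, 3 to 7 with both drugs against untreated cells, 1 to 4 against 5azadC, 0 to 1 against VX680 and 0 to 7 for the interaction. The uncalled Rn45s value with 5azadC turned positive without untreated replicate 2 (0.03, edgeR adjusted p = 0.909) and without 5azadC replicate 1 (0.18, edgeR adjusted p = 0.132), and it was called lower (-0.29, edgeR adjusted p = 0.0184) without 5azadC replicate 2. The uncalled Rn45s value with VX680 was called higher in 4 alternatives. Apart from fewer libraries and other filters, the cause was not tested. With the replicate block the counts were 2, 11, 4, 1, 1 and 2. Replicate differences of the groups correlated between -0.0622 and 0.0326, so the numbers were not taken to pair the libraries. The median standard error was 0.36 over members and 0.15 over all genes with VX680.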

Other observations

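Several small RNAs of the same machinery are typed as ncRNA in the table and so fall outside the members. They were picked after their values were seen. Terc, the RNA template of telomerase and itself a box H/ACA RNA, stood at 10.8 and 15.4 CPM in untreated cells, 15.7 and 19.3 with 5azadC, 45.2 and 36.2 with VX680, and 50.5 and 40.8 with both drugs. It rose with VX680 by 1.67 ± 0.20 on the log2 scale (edgeR adjusted p = 1.43e-05) and with both drugs by 1.83 ± 0.20 (edgeR adjusted p = 3.66e-06), and the 4 libraries with VX680 lay above the 4 without it. With 5azadC alone its value was 0.44 ± 0.21 and was not called (edgeR adjusted p = 0.107), but it was called without untreated replicate 2 (0.68, edgeR adjusted p = 0.0432). Both drugs against 5azadC gave 1.39 ± 0.19 (edgeR adjusted p = 0.000176).

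Of the small Cajal body RNAs, Scarna13 had -0.43 ± 0.13 with 5azadC (edgeR adjusted p = 0.0159) and an interaction of 0.62 ± 0.18 (edgeR adjusted p = 0.0351). Scarna6 stood at 56.9 and 94.1 CPM in untreated cells and at 52.6 and 117 with 5azadC. Replicate 2 was thus the higher one in both groups, as for most members. Vaultrc5, the vault RNA, showed the same difference, at 100 and 282 CPM in untreated cells and 147 and 246 with 5azadC. In untreated cells Scarna13 (74.0 and 59.5 CPM) and Scarna10 (11.8 and 9.97 CPM) went the other way. With 5azadC their replicate 2 was the higher one. Rmrp and Rpph1 were not called in any of the 3 comparisons with untreated cells.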
